A study of Mus musculus with 6 samples.

Results

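Glutathione and antioxidant defence genes were examined in 6 primary mouse cell lines of small cell lung carcinoma. The members are 48 genes chosen by symbol for their function: glutathione S-transferases, glutathione peroxidases, the enzymes of glutathione synthesis and reduction, NRF2 and its classical targets, the thioredoxin and peroxiredoxin system, and the superoxide dismutases with catalase. Symbols were found by matching each probe's transcript accession to RefSeq, which placed 47 of the 48 on the array with 62 of its 41174 probes. Gstk1 had no matched probe. Of the 47 genes, 43 passed the filter on dim probes and were tested among 19848 features.

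The study compared 3 lines labelled SMC with 3 labelled non-SMC, and each SMC line has a non-SMC partner in the same labelled pair. SMC is not spelled out in the labels. All 6 lines came from lung tumours of C57BL/6J mice with conditional Rb1 L/L and Trp53 L/L alleles, so both groups share this genotype and there is no normal lung. The mice of pairs 1 and 3 were female and that of pair 2 was male, no treatment is given, and each line was hybridised once to a 1-colour Agilent array. How Cre was delivered is not stated in the sources used here, nor is the passage number. Replicates 1, 2 and 3 of either group are the lines of pairs 1, 2 and 3, and p-values of the paired model measure the spread between these 3 pairs. Those given without the pairs, or within 1 slide, measure the spread between the lines of a group.

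Glutathione is a small thiol that cells make from glutamate, cysteine and glycine. Glutathione S-transferases join it to reactive electrophiles, and glutathione peroxidases use it to reduce peroxides. A parallel system of thioredoxin and peroxiredoxins removes peroxides too, and the transcription factor NRF2, held back by KEAP1, drives many genes of both systems. In lung, conducting airway epithelium is known for high levels of these enzymes.

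Signals are log2 intensities relative to the 75th percentile of their own array, so 0 is the level of a probe at that percentile and each unit is a doubling. Differences are SMC minus non-SMC in the paired limma model, ± SE over 3 pairs, with p-values adjusted by the Benjamini-Hochberg method over all 19848 features and a threshold of 0.05. A probe that the scanner software did not call well above its background has only an upper bound on that array. Signals of different probes are not comparable with each other.

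The arrays and the identity of the lines bear on all results. Between 64.1% and 68.5% of probes were well above background on each array, and no spot of the probes used was saturated (0 on each array). Of 12 neuroendocrine markers, all 12 were well above background in every SMC line, with a summed signal of 325 to 425 times the 75th percentile. The non-SMC lines had 10, 12 and 12 of them, with sums of 27.9, 174 and 22.9, so non-SMC replicate 2 stood apart from the other non-SMC lines. Of 11 fibroblast and mesenchymal markers, 10 to 11 were well above background in non-SMC lines (sum 192 to 611) and 5 to 6 in SMC lines (sum 0.559 to 2.53). Col1a1, a defining fibroblast collagen, was not well above background in any SMC line, while Col1a2, Pdgfra, Dcn and Thy1 were in all 3. Of the 10 tested, SMC lines lay below non-SMC lines for 7, and the groups overlapped for Pdgfra, Dcn and Thy1. Differences were below 0 for 9 and above 0 for Thy1 (0.91). Leukocyte markers numbered 9 of 10 in non-SMC replicate 3 against 4 in each other non-SMC line, and 4, 4 and 6 in the SMC lines. Their sums were 1.74 to 13.4 in non-SMC and 0.118 to 1.30 in SMC lines. Cd14 was by far the brightest of them in each non-SMC line, at 0.66, 1.96 and 3.54 log2, and made up most of those sums. Ptprc, Tyrobp, Lyz2, Itgam and Adgre1 were not well above background in non-SMC replicates 1 and 2. Of 7 endothelial markers, 3 were well above background in each non-SMC line (sum 0.186 to 12.0) and 2 in each SMC line (sum 0.32 to 21.0). Vwf was measured on all 6 arrays. Kdr was measured in all 3 non-SMC lines and in SMC replicate 2, and Eng in the 3 non-SMC lines alone. Tek went the other way, measured in SMC replicates 1 and 3 and in 0 non-SMC lines. The defining Pecam1, Cdh5 and Emcn were measured on 0 arrays. Of 9 club and alveolar epithelial markers, 5, 8 and 8 were well above background in the non-SMC lines (sum 1.17 to 9.04) and 7, 7 and 5 in the SMC lines (sum 0.636 to 25.4). Among them the club cell enzyme Cyp2f2 was measured in 3 non-SMC lines and 1 SMC line, and the club cell marker Scgb1a1 in 2 and 3. Of the 6 tested, 3 differences were above 0 and 3 below, and the groups overlapped for all 6. Of these, 0 passed (limma). At an unadjusted p under 0.05, 2 were lower and 0 higher, against 11.8% and 14.9% of all features. The part of these markers in the differences below was not tested, and in such bulk RNA fewer cells of a type and less RNA per cell cannot be told apart.

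Across the tested members, 6 genes were lower in SMC lines and 0 were higher. The 6 are Gsta1, Gsta2, Gsta4, Gstt3 and Mgst1, which are glutathione S-transferases, and Gpx8, a glutathione peroxidase of the endoplasmic reticulum. They are 14% of the 43 tested, where limma called 3.03% of all features lower and 0.156% higher. At an unadjusted p under 0.05, 19 members were lower and 3 higher, against 11.8% and 14.9% of all features. Of the 6, Mgst1 alone was well above background on all 6 arrays. The other 5 entered the test through the non-SMC arrays alone, and genes that enter that way have to differ, so their share supports nothing by itself. Among the 37 members well above background on all 6 arrays, 1 was lower (2.7%) and 0 higher, against 1.08% and 0.0245% of such features.

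The median difference of the tested members was -0.40, while that of all features was 0.18, and the members ran from -8.46 to 3.21. All 3 SMC lines lay below all 3 non-SMC lines for 17 members (39.5%, against 15.4% of all features) and above them for 5 (11.6%, against 22.8%), and the groups overlapped for 21. The sign was the same in all 3 pairs for 28 (65.1%, against 55.5%). With the 37 members seen on every array, the SMC lines lay below for 12 (32.4%, against 12.8%) and above for 4 (10.8%, against 21.6%), with a median of -0.24 against 0.15. Within pairs 1, 2 and 3 the median difference was -0.89, -0.25 and -0.86. Signals lower by more than 2 log2 units in the SMC partner were found for 14, 12 and 20 of the 43 genes in those pairs. These are 32.6%, 27.9% and 46.5%, where 9.98%, 8.86% and 10.8% of all features were as much lower. Signals higher by that much were found for 4, 1 and 0 genes (9.3%, 2.33% and 0%), against 13.5%, 1.57% and 11.9% of all features. Gsta1, Gsta2, Gsta4, Gstt3 and Gpx8 are among the lower genes in all 3 pairs. They entered the test through the non-SMC arrays alone, so the lower shares are set in part by the filter.

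**Figure D1:**
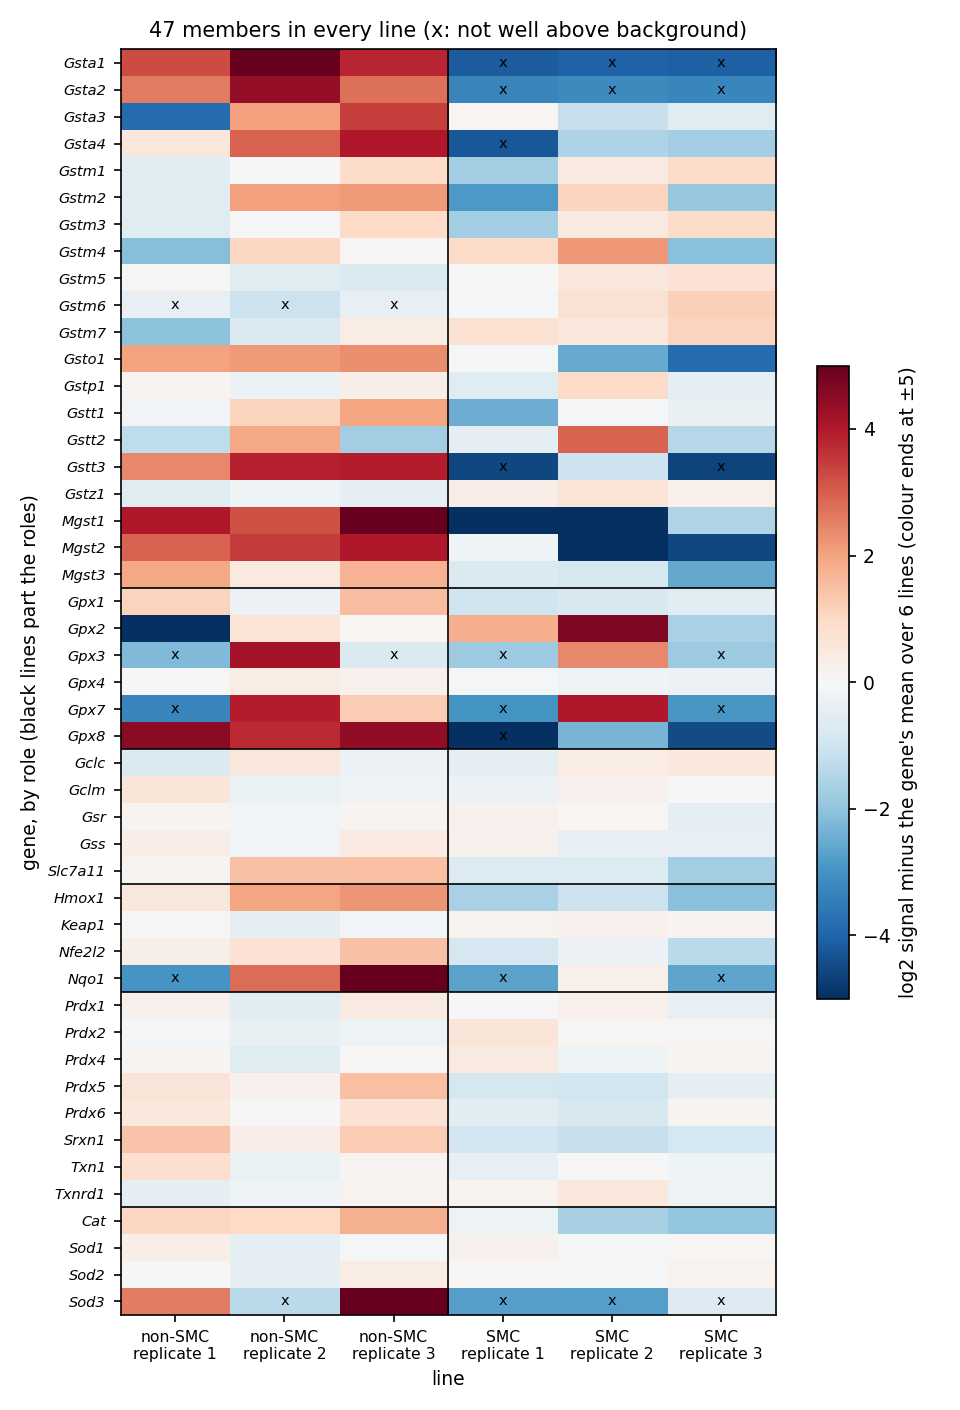
Signal of the 47 members with a probe (rows, grouped by role) in each of the 6 lines (columns), as log2 signal minus the gene's own mean over the 6 lines; red is above and blue below that mean, colours end at ±5, and x marks a signal not well above background. Gsta1, Gsta2, Gstt3, Mgst1, Mgst2 and Gpx8 are red in the 3 non-SMC lines and mostly blue in the SMC lines, while Gclc, Gclm, Gsr, Sod1 and Sod2 stay near white.

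Glutathione S-transferases made up 5 of the 6 called genes and 20 of the 43 tested. Of these 20, 5 were lower (25%, against 3.03% of all features), 0 were higher (0.156% of all features) and 15 did not pass. Their median difference was -1.55. Gsta1, Gsta2, Gsta4 and Gstt3 entered the test through the non-SMC arrays alone, so this share supports nothing by itself. In the alpha class, Gsta1 and Gsta2, cytosolic enzymes that detoxify electrophiles and organic peroxides, were lower and not well above background in any SMC line. Gsta4, known for conjugating aldehydes released by lipid peroxidation, was also lower.

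Gsta1 read -1.21 (pair 1), 0.73 (pair 2) and -0.67 (pair 3) among the non-SMC lines, and -8.66, -8.53 and -8.55 in the SMC partners in that order, which is kept for the genes that follow. It was well above background in all 3 non-SMC lines and in 0 of 3 SMC lines. The fitted difference was -8.20 ± 0.47 (limma adjusted p = 0.0106). Because the SMC values are at background, the fold is stated as a bound, at least 60.3-fold lower. This bound sets the mean of the non-SMC lines against the dimmest signal that counted as well above background on each SMC array.

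Gsta2 read -2.53, -0.71 and -2.36 in the non-SMC lines and -8.40, -8.31 and -8.36 in the SMC lines. It too was measured in 3 of 3 non-SMC and 0 of 3 SMC lines, with the highest level in non-SMC replicate 2. The difference was -6.49 ± 0.48 (limma adjusted p = 0.0154), at least 21.6-fold lower. Gsta1 and Gsta2 are close paralogs in sequence, and how far their probes cross-hybridise was not tested.

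Gsta4 gave -1.73, 0.62 and 1.68 in non-SMC lines, against -6.55, -3.85 and -4.05 in SMC lines. SMC replicate 1 was not well above background, so 2 of 3 SMC lines measured it, and the groups did not overlap. Its difference was -5.01 ± 0.38 (limma adjusted p = 0.0168). With pairs left out of the model the adjusted p was 0.056, so the call was not made there. Gsta3, the remaining alpha member, had overlapping groups. Its non-SMC lines spread from -5.17 through 0.75 to 2.16 in replicates 1 to 3 and its SMC lines read -1.24, -2.49 and -1.93, a difference of -1.13 ± 1.80 (limma adjusted p = 0.717).

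The microsomal enzymes are membrane proteins that conjugate glutathione or reduce lipid peroxides, and Mgst1 is the broadest in substrate. Its signal was 3.80, 2.97 and 4.74 in non-SMC lines and -5.56, -5.55 and -1.72 in SMC lines. Every array measured it, and SMC replicate 3 was the least reduced. Mgst1 fell by 8.11 on the log2 scale (SE 0.66, limma adjusted p = 0.0193). A second Mgst1 probe gave -9.10 ± 0.99, with 1 of 3 SMC lines well above background.

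Mgst2, which can also conjugate a leukotriene, read 2.81, 3.36 and 3.86 in non-SMC lines and -0.33, -5.76 and -4.69 in SMC lines. All 3 SMC lines lay below, but SMC replicate 1 was far above its group. The difference of -6.94 ± 1.36 did not pass (limma adjusted p = 0.0987), and without the pairs the adjusted p was 0.0449. Mgst3 ran at 2.49, 1.03 and 2.29 against -0.16, -0.33 and -2.0, again without overlap, a difference of -2.76 ± 0.66 (limma adjusted p = 0.119).

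Gstt3, of the theta class, gave -1.27, 0.20 and 0.23 in non-SMC lines and -8.25, -4.74 and -8.32 in SMC lines. Only SMC replicate 2 measured it. Gstt3 fell by 6.82 (SE 0.78, limma adjusted p = 0.0366), or by 5.53 when the dim arrays are set at the dimmest detected signal. Its class members Gstt1 and Gstt2 differed by -1.97 ± 0.39 and 0.71 ± 0.31, and neither passed (limma adjusted p = 0.0987 and 0.241).

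Gsto1, the omega enzyme that reduces oxidised vitamin C, was at 4.87, 4.98 and 5.20 in non-SMC lines and at 2.81, 0.34 and -1.0 in SMC lines. The non-SMC lines were close together, and the SMC lines were lower and spread over more than 3 units. The difference was -4.30 ± 0.89 (limma adjusted p = 0.106).

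The mu class held 0 called genes among its 7 members (limma), and the differences ran from -2.43 (Gstm2) to 1.63 (Gstm7). At an unadjusted p under 0.05, Gstm2 was lower and Gstm6 and Gstm7 higher, where 11.8% of all features were lower and 14.9% higher. SMC lines lay above non-SMC lines for Gstm7 and for Gstm6, which only the SMC arrays measured (1.27 ± 0.43, at least 2.14-fold higher, limma adjusted p = 0.17). Gstm5, Gstm4, Gstm1 and Gstm3 had overlapping groups, with differences of 0.85, 0.71, -0.24 and -0.24. The probes of Gstm1 and Gstm3 kept nearly the same distance on all 6 arrays (0.835 to 0.953 log2 units), so these close paralogs may not have been measured apart. Gstp1, the pi-class enzyme common in tumours, read 6.73, 6.31 and 6.93 in non-SMC lines and 6.03, 7.57 and 6.13 in SMC lines, a difference of -0.08 ± 0.55. Gstz1, an enzyme of tyrosine breakdown, had SMC lines above non-SMC lines by 0.82 ± 0.28 (limma adjusted p = 0.174).

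**Figure D2:**
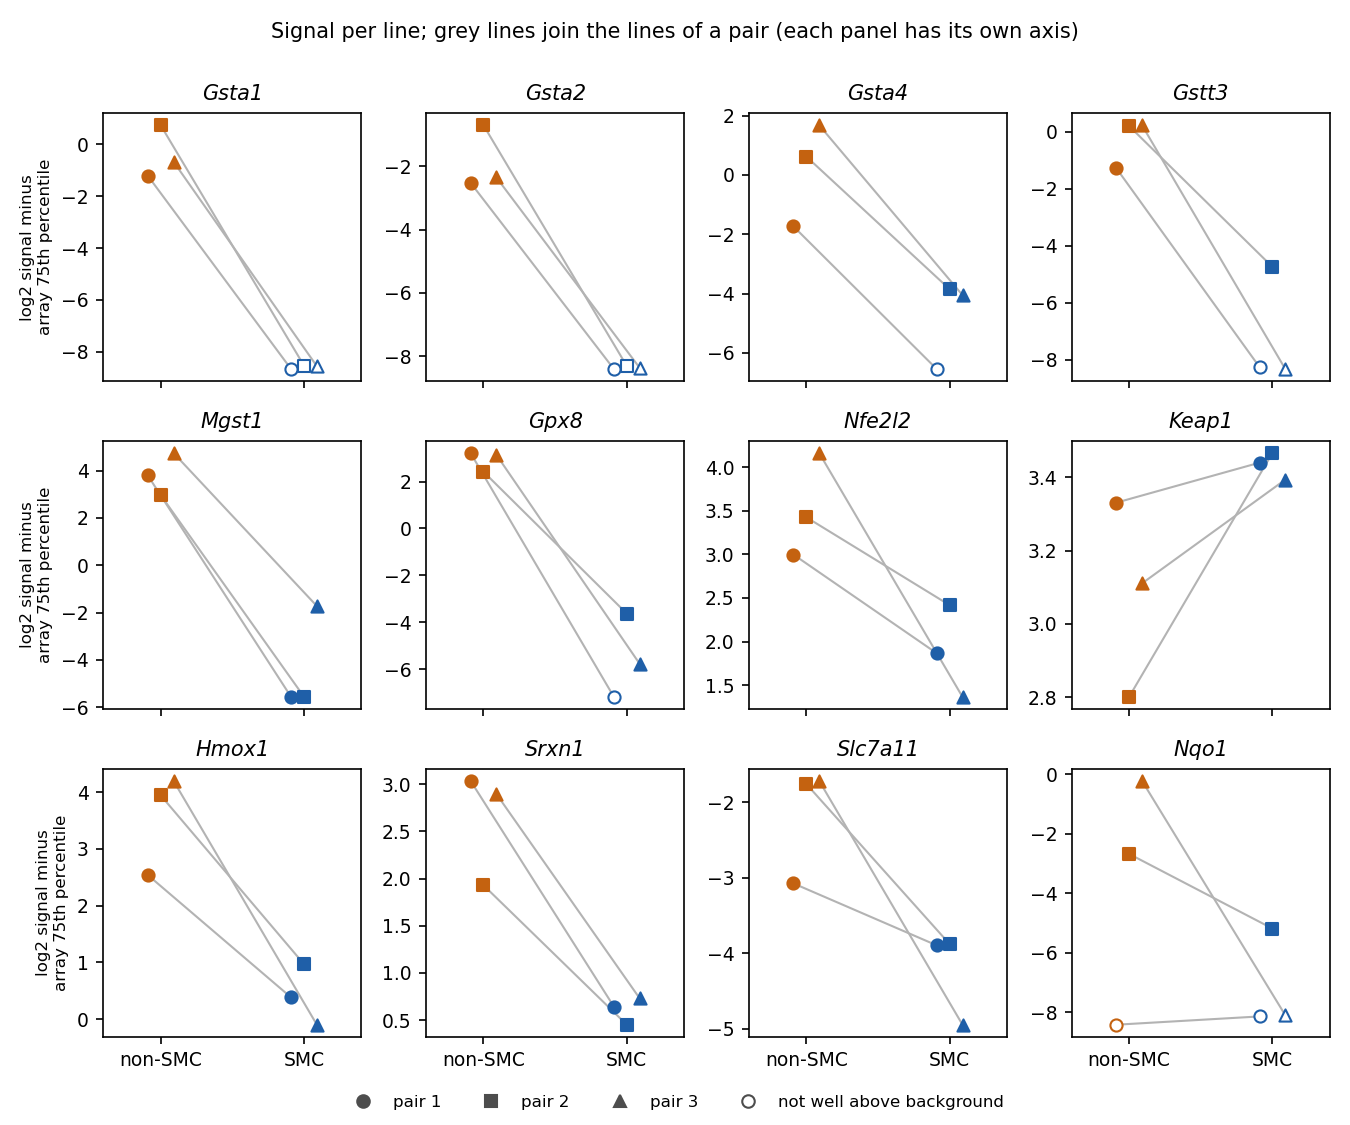
Log2 signal relative to the array's 75th percentile (vertical axis, its own range in each panel) of 12 members in the non-SMC (orange) and SMC (blue) line of each pair; circles, squares and triangles are pairs 1, 2 and 3, grey lines join a pair, and open symbols are not well above background. All 3 pairs descend from non-SMC to SMC for Gsta1, Gsta2, Gsta4, Gstt3, Mgst1, Gpx8, Nfe2l2, Hmox1, Srxn1 and Slc7a11, while Keap1 spans less than 1 unit and Nqo1 is open in 3 of 6 lines.

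Among the glutathione peroxidases, 1 of the 4 tested was lower (25%, against 3.03% of all features), 0 were higher (0.156% of all features) and 3 did not pass. The 1 called, Gpx8, entered the test through the non-SMC arrays alone. Gpx8, a membrane-bound peroxidase of the endoplasmic reticulum, read 3.22, 2.42 and 3.15 in non-SMC lines and -7.19, -3.63 and -5.78 in SMC lines. SMC replicate 1 was not well above background and the groups lay far apart. The difference was -8.46 ± 0.94 (limma adjusted p = 0.0341), and -8.20 with that array set at the dimmest detected signal.

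Gpx1, the abundant cytosolic selenoenzyme, gave 5.93, 4.51 and 6.33 in non-SMC lines and 3.79, 4.0 and 4.25 in SMC lines. The SMC lines were all lower, by the least in pair 2, and the difference of -1.57 ± 0.46 did not pass (limma adjusted p = 0.148). Gpx4, which reduces lipid hydroperoxides in membranes and protects from ferroptosis, was at 5.43, 5.79 and 5.66 against 5.34, 5.22 and 5.13, a difference of -0.39 ± 0.30 (limma adjusted p = 0.439).

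Gpx2, an epithelial peroxidase, differed by pair. Its non-SMC lines read -3.79, 2.53 and 1.95 and its SMC lines 3.63, 6.49 and 0.20. The SMC line was higher than its partner in pairs 1 and 2 (by 7.42 and 3.96) and lower in pair 3 (-1.75), so the mean difference of 3.21 ± 1.90 did not pass (limma adjusted p = 0.342). The secreted Gpx3 and the endoplasmic reticulum enzyme Gpx7 were not tested. Gpx3 was well above background in the lines of pair 2 alone, at -2.41 (non-SMC) and -4.14 (SMC). Gpx7 was measured in both lines of pair 2, at -1.78 and -1.71, and in non-SMC replicate 3, at -4.43.

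Most genes that make and recycle glutathione had small differences with overlapping groups. All 5 were well above background on every array, 0 passed in either direction (limma), and their median difference was -0.09. At an unadjusted p under 0.05, 1 was lower and 0 higher, against 11.8% and 14.9% of all features. Gclc, the catalytic subunit of the rate-limiting glutamate-cysteine ligase, read 2.27, 3.56 and 2.69 in non-SMC lines and 2.53, 3.35 and 3.53 in SMC lines. The ranges overlapped, with a difference of 0.29 ± 0.35 (limma adjusted p = 0.62). Its modifier subunit Gclm was at 0.29, -0.65 and -0.50 against -0.60, -0.08 and -0.29, a difference of -0.03 ± 0.41 (limma adjusted p = 0.967). Glutathione synthetase (Gss) and glutathione reductase (Gsr) differed by -0.40 ± 0.31 and -0.09 ± 0.33, both with overlapping groups.

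Slc7a11, the transporter that brings in cystine in exchange for glutamate, was the gene of this group with separate ranges by its brightest probe. It read -3.08, -1.76 and -1.72 in non-SMC lines and -3.90, -3.88 and -4.95 in SMC lines, lower in the SMC partner of each pair. The difference of -2.06 ± 0.56 did not pass (limma adjusted p = 0.135). The other Slc7a11 probes gave -3.0 and -3.07, but were well above background in only 2 and 1 of 3 SMC lines. The groups overlapped for the probe at -3.07. Within the 4 arrays on the shared slide the difference was -2.15 (limma adjusted p = 0.0445). Of 21 models run, this was the 1 in which Slc7a11 passed. Without the pairs its limma adjusted p was 0.07. Outside the member list, the features closest to Slc7a11 in pattern over the 6 arrays were Pappa (Pearson r = 0.997), Rnaset2b (0.992), Btbd7 (0.990), Tnfaip3 (0.990) and Irf2 (0.990). These correlations only describe 6 arrays, and arrays of a group share their differences from the other group.

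The regulator NRF2 and its classical targets were not called. Of 4 genes, 3 were tested (Nfe2l2, Keap1 and Hmox1) and 0 passed in either direction (limma). At an unadjusted p under 0.05, 2 were lower and 0 higher, against 11.8% and 14.9% of all features. The groups did not overlap for any of the 3. SMC lines lay below for Nfe2l2 and Hmox1 and above for Keap1, where 15.4% of all features lay below and 22.8% above. Nfe2l2, which encodes NRF2, read 3.0, 3.43 and 4.16 in non-SMC lines and 1.87, 2.42 and 1.36 in SMC lines. The SMC lines were all lower, by the most in pair 3. The difference was -1.65 ± 0.49 (limma adjusted p = 0.148), and a second probe gave -1.51.

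Keap1, the adaptor that sends NRF2 for degradation, was at 3.33, 2.80 and 3.11 in non-SMC lines and 3.44, 3.47 and 3.39 in SMC lines. The SMC lines were slightly above, by 0.35 ± 0.30 (limma adjusted p = 0.49). Hmox1, the haem-degrading oxygenase, read 2.54, 3.94 and 4.20 against 0.38, 0.97 and -0.10, with separate groups. Its difference of -3.14 ± 0.52 missed the threshold in the paired model (limma adjusted p = 0.0733). Without the pairs the adjusted p was 0.0297, and within the shared slide the difference was -3.39 with an adjusted p of 0.0328.

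Nqo1, the quinone reductase often used as a readout of NRF2, was not tested, since neither group measured it on all arrays. It was well above background in non-SMC replicates 2 and 3 (-2.68 and -0.23) and in SMC replicate 2 (-5.19), and not in non-SMC replicate 1 (-8.42) or SMC replicates 1 and 3 (-8.14 and -8.10). Non-SMC replicate 3 had the highest signal, and it was also the line with the most leukocyte markers (9 of 10). Non-SMC replicate 2 and SMC replicate 2, which measured Nqo1 too, had 4 of 10 each. A link between Nqo1 and these markers was not tested.

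NRF2 with a small MAF protein binds the antioxidant response element, whose core is TGACNNNGC. Promoters were searched for these letters on both strands, as 1 place where NRF2 could bind. Sequence outside the short window given next was not searched, so a member without a match there may still have an element elsewhere. The RefSeq promoter table of GRCm38.p6 holds 41 of the 48 members, each with 250 bases before to 50 after the start. Gclc, Gsr, Gsta4, Gstt2, Hmox1, Prdx6 and Sod3 are not in it. The core occurred in at least 1 promoter of 10 members (24.4%) and of 3781 of 27025 genes in the table (14.0%). Counted by promoter, these are 10 of 54 (18.5%) and 4071 of 32851 (12.4%). AP-1 sites share the first letters of the core and were not searched.

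Stretches around the core are given for 6 members that differ in role and in measured difference, read along the gene's own strand with the core in capitals. Where the core lies on the opposite strand it appears as GCNNNGTCA. Mgst1 (chr6:138140451-138140499, plus strand) is the one gene among the members called lower that holds it, of 5 such genes in the table.
Mgst1: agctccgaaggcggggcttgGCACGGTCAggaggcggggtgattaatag
Nfe2l2: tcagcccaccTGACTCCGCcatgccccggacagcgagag
Gclm: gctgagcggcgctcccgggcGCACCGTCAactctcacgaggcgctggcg
Txnrd1: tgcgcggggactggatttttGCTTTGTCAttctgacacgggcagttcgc
Prdx1: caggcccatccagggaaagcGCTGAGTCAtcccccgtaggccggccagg
Gstm7: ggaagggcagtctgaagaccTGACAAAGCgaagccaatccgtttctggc
The others lie at chr2:75704875-75704913 (Nfe2l2, minus strand), chr3:122245403-122245451 (Gclm, plus), chr10:82859094-82859142 (Txnrd1, plus), chr4:116685446-116685494 (Prdx1, plus) and chr3:107931715-107931763 (Gstm7, minus). All 6 stretches are upstream of the annotated start. The SMC minus non-SMC differences of these genes ran both ways, from -8.11 (Mgst1) through -1.65 (Nfe2l2), -0.10 (Prdx1) and -0.03 (Gclm) to 0.34 (Txnrd1) and 1.63 (Gstm7), and Mgst1 alone passed. A match describes letters in this window and is not a measured binding site.

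The thioredoxin and peroxiredoxin group, which removes hydrogen peroxide through thiols, had 8 tested genes with 0 called in either direction (limma) and a median difference of -0.25. At an unadjusted p under 0.05, 3 were lower and 0 higher, against 11.8% and 14.9% of all features. Srxn1, the sulfiredoxin that reactivates over-oxidised peroxiredoxins, read 3.03, 1.93 and 2.90 in non-SMC lines and 0.64, 0.45 and 0.73 in SMC lines. The SMC lines were close together and all lower. The difference of -2.01 ± 0.34 missed the threshold (limma adjusted p = 0.0749), and without the pairs the adjusted p was 0.0343.

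Prdx5, a peroxiredoxin found in mitochondria and peroxisomes, gave 3.19, 2.74 and 4.03 against 1.64, 1.56 and 2.02, also separate (-1.58 ± 0.32, limma adjusted p = 0.104). Prdx6 was at 5.31, 4.80 and 5.53 against 4.23, 4.0 and 4.94, with the SMC line of pair 3 within the non-SMC range (-0.82 ± 0.29, limma adjusted p = 0.184). The abundant cytosolic Prdx2 lay slightly above in SMC lines by its brightest probe, at 6.94, 6.64 and 6.76 against 7.63, 7.09 and 7.06 (0.48 ± 0.29, limma adjusted p = 0.345). Its other probes, well above background on all 6 arrays, gave larger differences of 0.84 and 0.72, also without overlap (limma adjusted p = 0.183 and 0.225). Thioredoxin (Txn1), its reductase (Txnrd1), Prdx1 and the endoplasmic reticulum enzyme Prdx4 overlapped between the groups, with differences of -0.40, 0.34, -0.10 and 0.25.

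Of superoxide dismutases and catalase, 3 were tested and 0 passed in either direction (limma). At an unadjusted p under 0.05, 1 was lower and 0 higher, against 11.8% and 14.9% of all features. Sod1, the cytosolic enzyme, read 7.15, 6.35 and 6.77 against 7.05, 6.79 and 6.89, a difference of 0.15 ± 0.30. Sod2, the mitochondrial enzyme, read 5.03, 4.60 and 5.43 against 5.11, 4.96 and 5.25, a difference of 0.09 ± 0.30. For both, the groups overlapped.

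Catalase (Cat), which splits hydrogen peroxide in peroxisomes, was at 0.90, 0.88 and 1.63 in non-SMC lines and -0.37, -1.78 and -2.05 in SMC lines. The groups were separate, the difference was -2.53 ± 0.56 (limma adjusted p = 0.112), and without the pairs the adjusted p was 0.047. Sod3, the extracellular enzyme, was not tested: it was measured in non-SMC replicates 1 and 3 (-3.23 and -0.81), and not in non-SMC replicate 2 (-7.14) or in any SMC line (-8.55, -8.52 and -6.41).

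**Figure D3:**
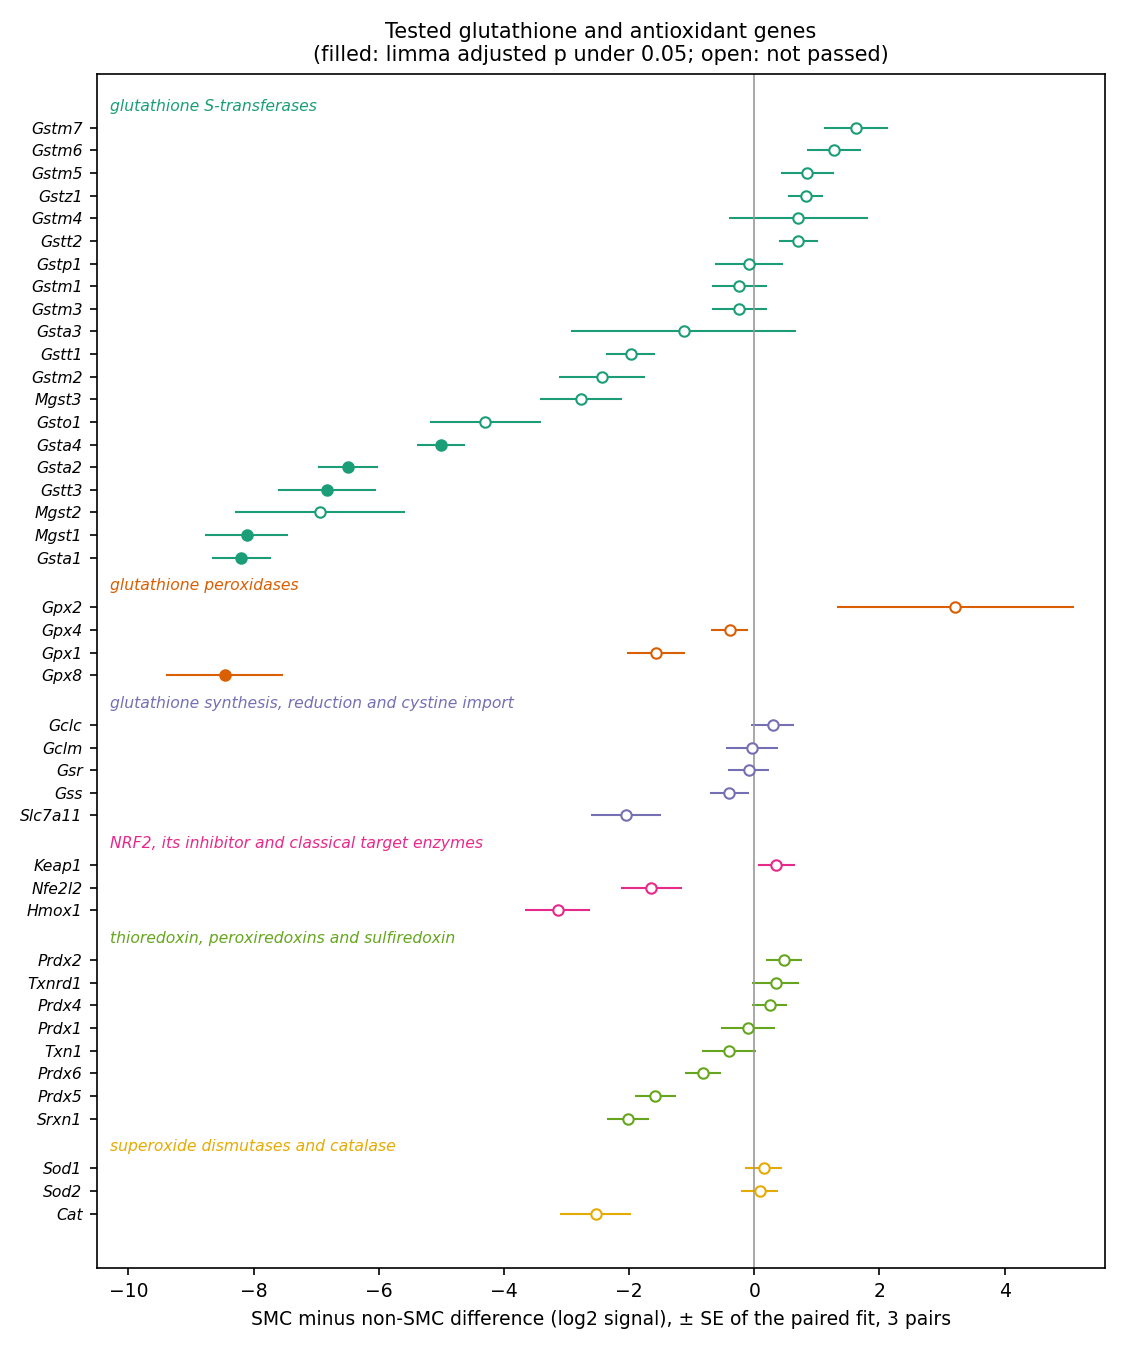
SMC minus non-SMC difference in log2 signal (horizontal axis) with its SE over 3 pairs for the 43 tested members, grouped by role and sorted; filled points passed the limma test at an adjusted p under 0.05 and open points did not. The 6 filled points lie between -8.46 and -5.01, and the synthesis genes other than Slc7a11 lie within 1 unit of 0.

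Which members were called depended on the lines in the model. Leaving out pair 2 kept the same 6 genes, where 2.5% of all features were lower and 2.64% higher. Leaving out pair 1 kept Gsta1 and added Mgst2, where 1.04% of all features were lower and 0% higher. Leaving out pair 3 left 0 members (limma; 13 lower and 3 higher at an unadjusted p under 0.05), and 0 of all features in either direction. Without the pairs as a term, 9 members were lower (4.91% of all features were): Gsta1, Gsta2, Gstt3, Mgst1, Mgst2, Gpx8, Hmox1, Srxn1 and Cat. In that unpaired model, leaving out non-SMC replicate 2, the non-SMC line with the highest neuroendocrine sum, gave 10 members lower (5.78% of all features), and leaving out non-SMC replicate 3 gave 3 (Gsta1, Gsta2 and Gpx8; 2.18% of all features). Members higher in SMC lines numbered 0 in each of these models, where limma called 1.38% of all features higher without the pairs and 7.85% with non-SMC replicate 2 left out as well.

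Slides crossed the groups in part, since 4 arrays shared a slide (replicates 1 and 2 of SMC, 2 and 3 of non-SMC) and the other 2 were on slides of their own among the arrays used here. Within the shared slide, 5 members were lower (3.08% of all features): Gsta1, Gsta2, Mgst1, Hmox1 and Slc7a11. There 0 members were higher (0.101% of all features, limma; 1 member at an unadjusted p under 0.05). The differences of Gsta4, Gstt3 and Gpx8 there were -6.35, -6.71 and -8.19, with limma adjusted p-values of 0.0927, 0.113 and 0.0862. With a background correction that adds an offset to every spot, the 6 called genes differed by -1.93 (Gsta2) to -6.41 (Mgst1), and Gsta2 no longer passed (limma adjusted p = 0.0749).

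Over the signals of the 43 tested members, SMC arrays correlated with each other at 0.927 to 0.934 and non-SMC arrays at 0.901 to 0.958, while the lines of a pair correlated at 0.703 to 0.756. In pair 2 that value was 0.703, where the same arrays reached 0.861 over all features. These are correlations across genes, which are not independent, and are given as a description.

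Lists of related genes outside the members gave the setting. Of 20 tested genes of glutathione turnover and the glutaredoxins, 0 passed in either direction (limma), with a median of -0.68. At an unadjusted p under 0.05, 9 were lower and 1 higher, against 11.8% and 14.9% of all features. Among those lower, Dpep1 entered the test through the non-SMC arrays alone. The largest differences there were Dpep1, a dipeptidase that splits cysteinyl-glycine, at -4.28 ± 0.79 (limma adjusted p = 0.0903), measured in 0 of 3 SMC lines and so at least 9.94-fold lower, and Ggt7, of the gamma-glutamyltransferase family, at 3.14 ± 1.07 (limma adjusted p = 0.173). Of 19 tested thioredoxin and redox repair genes, 1 was lower (5.26%, against 3.03% of all features) and 0 higher (0.156% of all features), with a median of -0.25. The 1 was Pon2, a lactonase of the paraoxonase family, at -5.50 ± 0.35 (limma adjusted p = 0.0124), measured in 1 of 3 SMC lines. Pon2 entered the test through the non-SMC arrays alone, so this count supports nothing by itself.

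Of 29 other NRF2 regulators and targets, 2 were lower (6.9%, against 3.03% of all features) and 0 higher (0.156% of all features), with a median of -1.14. Osgin1, a target induced by oxidative stress, fell by 7.94 (SE 0.70, limma adjusted p = 0.0223), and Ephx1, the microsomal epoxide hydrolase, fell by 2.70 (SE 0.35, limma adjusted p = 0.0465). The SMC lines lay below the non-SMC lines for 16 of these 29 genes (55.2%) and above for 0. All 29 were well above background on every array, and of all such features 12.8% lay below and 21.6% above. Limma called 1.08% of such features lower and 0.0245% higher.

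Of the oxidant-producing enzymes, 6 of 14 on the array were tested, 3 were lower and 0 higher, with a median of -5.33. Of the 6, 5 entered the test through the non-SMC arrays alone, including the 3 called, so this count and median are set in part by the filter and support nothing by themselves. Loxl1 and Loxl2, lysyl oxidases that crosslink collagen and elastin and release hydrogen peroxide, fell, with differences of -9.50 ± 0.65 (limma adjusted p = 0.0139) and -9.45 ± 0.95 (limma adjusted p = 0.0285). Loxl1 was not well above background in any SMC line, which bounds its fold at no less than 269, and Loxl2 was measured in 1 SMC line. Xdh, the xanthine oxidoreductase, fell by 5.11 (SE 0.39, limma adjusted p = 0.0168). Of the 10 fibroblast and mesenchymal markers tested, 7 also lay below without overlap in SMC lines, and 3 overlapped between the groups (Pdgfra, Dcn and Thy1). The part of these markers in the result was not tested.

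**Figure D4:**
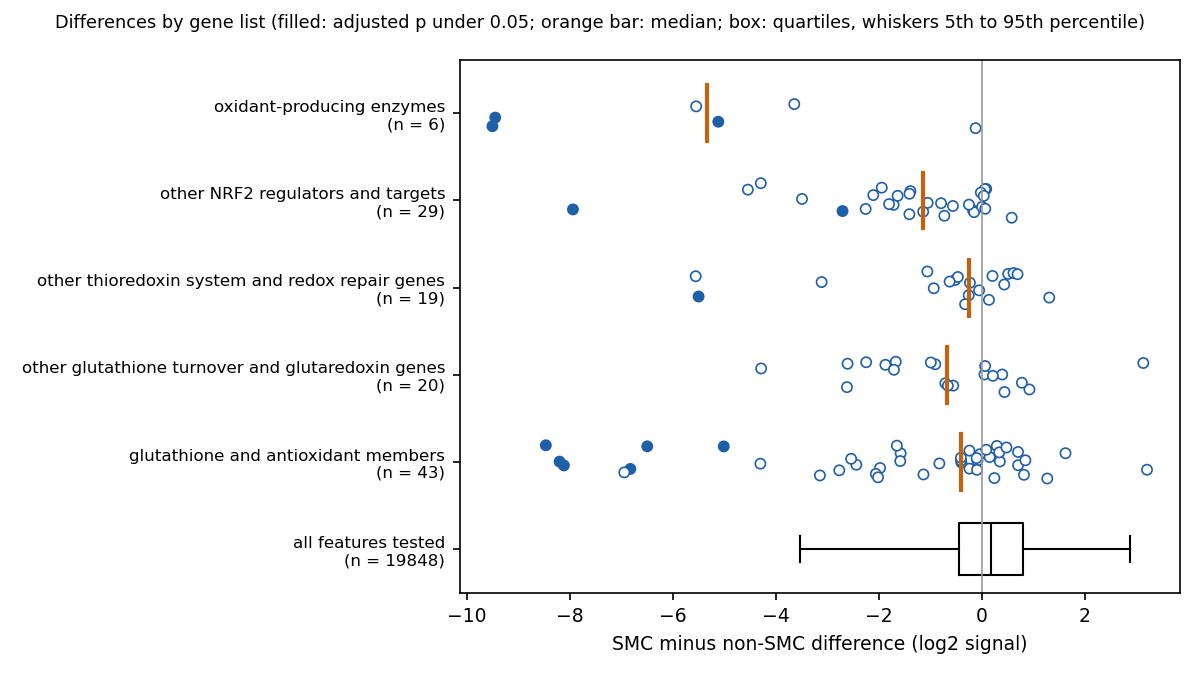
SMC minus non-SMC differences in log2 signal (horizontal axis) for the members and for the lists of related genes, 1 point a tested gene; filled points passed the limma test, the orange bar is the list's median, and the box at the bottom gives the quartiles of all 19848 features with whiskers from the 5th to the 95th percentile. The 43 members have a median of -0.40 and 6 filled points, and no list has a filled point to the right of 0. Of the 6 oxidant-producing enzymes, 5 were measured on all arrays of the non-SMC group alone, which bears on their median of -5.33.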

How the data were processed

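RNA of 6 lines, 1 array each, was measured on Agilent 1-colour arrays quantified with Feature Extraction 10.7.3.1, per the file headers (10.7 in the submitters' processing notes). The deposited intensity per spot used here is the processed signal, which is background-subtracted within the array, per the file headers, and not normalized between arrays. The deposited series table of log2 values is quantile-normalized: its column medians are 5.06, and each column correlated at 0.996 or more with its own array and at 0.960 or less with any other. It is not centred per gene, and served as an alternative.

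After 1639 control spots and all spots marked as outliers had been dropped, each signal was divided by the 75th percentile of its array (485 to 696 intensity units) and taken to log2. Testing required a probe to exceed background clearly in every line of the SMC or of the non-SMC group, and a gene was represented by its brightest such probe. Accessions without versions matched a RefSeq table of GRCm38.p6 for 27479 of 41174 probes, and 13695 stayed unnamed. The headers name build mm9, so array coordinates were not used. Promoter coordinates are those of GRCm38.p6.

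Differences came from limma 3.58.1 in R 4.3.3 (lmFit and eBayes, pair and group, two-sided, 2 residual and 2.07 prior degrees of freedom), tested on simulated data. The number of arrays limits the precision. Pairs come from the labels. Deviations from group means correlated at -0.01, 0.14 and -0.00237 within pairs and at -0.15 to 0.13 between lines of different pairs, so the signals themselves do not show the pairing. Members and lists were chosen with earlier results of these data known. Values on every array are given for members that passed, for the 3 largest differences of each role and for 7 genes of glutathione synthesis and NRF2, beside others shown for their role. Of each other list, genes past the threshold or the 2 largest differences are named.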

Additional observations from a re-analysis of the deposited data

How the results depend on the processing

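Members higher in SMC lines numbered 0 under every alternative run. Members lower in SMC lines numbered 6 in the paired model and 4 to 9 under other scalings, probe rules and blocks, except 1 with probes well above background on all arrays, and from 0 to 10 when a pair or a line was left out. Without the replicate block, features higher and lower numbered 274 and 975 (31 and 602 with it). Features higher and lower were 239 and 974 with median scaling, 7 and 383 with no filter on dim probes and 4 and 135 with probes above background on all arrays. Features higher were 54 with normexp, 54 with every probe on its own, 9 with slide as a block and 20 on the shared slide. Leaving out a pair or line gave 0 to 1559 features higher and 0 to 1147 lower. The members' median was -0.82 with no filter and -1.05 on the shared slide, and -0.75 to -0.29 with a pair or line left out. Signs turned for genes near 0. Gstp1 was 0.0811 with quantile normalization, 0.0742 in the deposited values and 0.18 on the shared slide. Prdx1 was 0.0271, 0.0282 and 0.17 in the same order. On the shared slide Gclc was -0.19, Gclm 0.24 and Gsr 0.15, and Gclm was 0.00325 with normexp. With a pair or line left out, the differences ran from -3.66 to 0.35 (Gsta3), -0.75 to 0.56 (Gstm1), -0.76 to 0.57 (Gstm3), -0.49 to 2.13 (Gstm4), -0.75 to 0.28 (Gstp1), -0.60 to 1.85 (Gstt2), -0.34 to 0.39 (Gclm), -0.25 to 0.15 (Gsr), -0.79 to 0.0122 (Txn1), -0.55 to 0.28 (Prdx1), -0.0487 to 0.35 (Sod1) and -0.12 to 0.30 (Sod2). The causes were not tested, apart from fewer features or lines in the models that leave some out. Signals near background bound the folds of Gsta1, Gsta2 and Gstm6 and kept Gpx3, Gpx7, Nqo1 and Sod3 out of the test.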
